A study of Mus musculus with 4 samples.

Results

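The potassium channel genes of the mouse were described here as 1 family in the dorsal hippocampus. The family holds every non-control probe whose gene symbol is Kcn, 1 or more letters and a number. Kcnj13, Kcne2 and Kcnj8 were left out by the selection rule. The array files give a transcript accession and no symbol for each probe, so symbols came from a RefSeq gene table. In all 142 probes of 89 genes in 20 subfamilies were found, of 56605 probes on the array, of which 32994 were named after 22911 genes. Probes whose accession is not in the RefSeq table have no symbol here, so further probes of these genes may be among them.

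The study asked, per its title, what excessive iodine intake does to the developing brain. RNA came from the dorsal hippocampus of female mice after behavioural testing and was hybridised, 1 sample per array, to Agilent 1-colour arrays. The control group has 2 arrays (replicates 2 and 3) and the group on a 20-fold iodine intake has 2 arrays (replicates 2 and 3). The labels name no strain, genotype, age, diet or length of intake, and whether each replicate is its own animal is not given, so errors and p-values below describe how these samples vary and may reflect technical variation alone.

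Potassium channels let potassium leave or enter a cell and so set its resting potential, shape the action potential and limit how fast a neuron fires. Pore-forming subunits fall into voltage-gated channels (Kcna to Kcnd, Kcnq and Kcnh), channels opened by calcium or sodium inside the cell (Kcnma, Kcnn, Kcnt), inward rectifiers (Kcnj) and leak channels with tandem pores (Kcnk). Other family members carry no current alone and modify the pore (Kcnf, Kcng, Kcns, Kcnv), or are auxiliary proteins that bind it (Kcnab, Kcne, Kcnip, Kcnmb). In the hippocampus, Kv4 channels carry the dendritic A-type current, Kv7 channels the muscarine-sensitive M current, and Kir4 channels take up potassium in astrocytes.

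The 4 arrays were alike in depth, with 37535 to 37921 probes well above background and no saturated spots. They shared 1 slide, the controls in columns 1 and 2 and the iodine samples in columns 3 and 4, so slide position and group cannot be told apart. All 10 marker genes of hippocampal neurons fixed for this comparison were well above background (5 higher and 5 lower in iodine, median log2 difference -0.0013). Markers of tissue next to the hippocampus varied most between arrays. The summed log2 level of 6 choroid plexus markers was 7.17 to 7.34 in controls and 5.73 to 8.07 in iodine, lowest on iodine replicate 2 and highest on iodine replicate 3. That of 7 meningeal markers was 7.87 to 8.02 in controls and 6.67 to 8.07 in iodine, and that of 6 tested thalamus and habenula markers 3.56 to 3.91 in controls and 3.50 to 4.30 in iodine (Gbx2 was not well above background). In bulk tissue, fewer cells of a type and less RNA per cell cannot be told apart.

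No potassium channel gene passed the threshold of an adjusted p under 0.05, and the members as a group lay close to the rest of the array. Of the 89 genes, 79 had at least 1 probe well above background on 2 or more arrays and were tested, with 122 of 142 probes. By limma with Benjamini-Hochberg adjustment over all 38231 probes tested, 0 of 122 member probes passed, against 0% of all probes, and the smallest adjusted p of a member was 0.518. An unadjusted p under 0.05 was found in 10 of 122 member probes, against 9.02% of all probes. Of these, 8 were higher in iodine (background 5.88%) and 2 lower (background 3.14%). Each gene is represented by its brightest probe in what follows unless another probe is named. By that probe 5 of 79 genes had an unadjusted p under 0.05, against 6.35% of all 16794 named genes tested. They were Kcnq1, Kcnj2, Kcnb2 and Kcnj6, the 4 higher in iodine (background 3.48%), and Kcne4, the 1 lower (background 2.88%). Kcne4 passed the filter through its 2 control arrays only, so the filter itself favoured a lower value in iodine. With probes well above background on all 4 arrays, the count was 4 higher and 0 lower, against 6.57% of all genes. The count was 3 without control replicate 3, against 4.87% of all genes in that fit.

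The members split almost evenly by direction. In 43 genes the iodine mean was higher (background 45.6%) and in 36 lower (background 54.4%), with a median log2 difference of 0.022, against -0.014 over all named genes. The split was 51 higher and 28 lower with normexp background correction, and 39 higher and 40 lower with arrays scaled to the median of detected probes. The backgrounds above are those of the processing as reported. The median over all named genes moved as well, to 0.0034 with normexp (members 0.041) and to -0.039 with that scaling (members -0.0027). The 2 arrays of 1 group lay wholly above those of the other in 29 of 79 members, against 39.9% of all genes. Of these, 19 were higher in iodine, against a background of 17.9%, and 10 lower, against 21.9%. The family median turned on single arrays and on scaling, at 0.070 without control replicate 2, -0.025 without control replicate 3 and -0.0027 with arrays scaled to the median of detected probes. The median absolute difference between groups was 0.11, beside a median gap of 0.12 between the controls and 0.16 between the iodine arrays. Over all named genes these values were 0.09, 0.10 and 0.11. The group difference is between means of 2 arrays and the gaps are between single arrays, so their sizes do not compare directly. In 65 genes the difference was within 0.20 of 0, and among genes well above background in both groups only that of Kcnq1 reached 1.5-fold. The fitted difference of Kcne4 was larger, but its iodine arrays were not well above background, so the size of that difference is not known. The median half-width of the 95% confidence interval was 0.30.

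**Figure D1:**
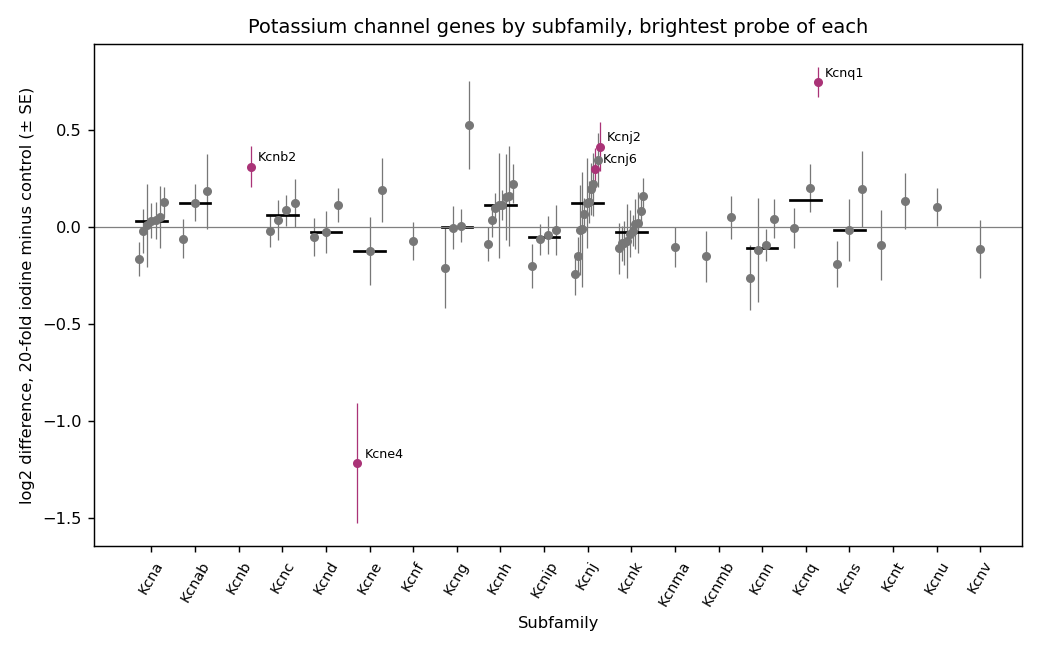
Log2 difference, 20-fold iodine minus control, of 77 of the 79 tested potassium channel genes (brightest probe of each, error bars are the SE of the fit, 2 arrays per group), by subfamily; coloured points have an unadjusted p under 0.05 and black lines are medians over all tested genes of subfamilies with at least 3. Most points lie within 0.20 of 0, Kcnq1 stands at 0.75 and Kcne4 at -1.22.

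Subfamily medians kept their sign in Kcnc, Kcnh, Kcnip, Kcnj and Kcnq under all 13 other ways of processing the arrays. Of these, the intensity trend, the replicate block and the fit over brightest probes return the same differences, so they could not turn a sign. Other medians turned, that of Kcna to -0.0071 with quantile normalization and that of Kcnk to 0.031 with normexp. The 10 genes not tested had 11 probes, at -7.48 to -4.18 on the scale explained below, and nothing is said of their differences.

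The Kv7 subunit gene Kcnq1 had the largest positive difference of the family, and 3 of its 4 probes gave the same size. Kcnq1 is best known as the pore of the slow delayed rectifier of heart and as an epithelial channel, and neuronal M current is carried by other Kcnq members. Values are log2 processed signals relative to the array's 75th percentile, so a negative value is a probe dimmer than that percentile. On probe A_66_P102591 Kcnq1 stood at -4.10 and -4.13 in controls and at -3.38 and -3.35 in iodine, a difference of 0.75 ± 0.08 (SE, n = 2 per group) or 1.68-fold. On probe A_55_P2086203 it stood at -4.49 and -4.11 against -3.61 and -3.49, a difference of 0.75 ± 0.16. On probe A_55_P2094641 it stood at -4.76 and -4.43 against -3.89 and -3.78, a difference of 0.76 ± 0.14. On these 3 probes both iodine arrays lay above both controls, and the adjusted p was 0.518 for each (limma). The fourth Kcnq1 probe, A_55_P2745108, stood at -4.61 and -4.45 in controls and -4.96 and -4.62 in iodine, a difference of -0.26 ± 0.15. It was well above background on 3 of 4 arrays, and its iodine arrays lay below both controls. A_55_P2745108 and A_55_P2094641 are each assigned to a transcript that no other Kcnq1 probe shares. Probe sequences were not used here, so whether the probes of Kcnq1 overlap is unknown.

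All Kcnq1 probes were dim: the lowest signals well above background lay at -5.15 to -5.01. With normexp background correction, whose offset of 50 narrows log2 differences of dim probes, the difference of the brightest Kcnq1 probe was 0.19. In that fit A_55_P2086203 had 0.16, A_55_P2094641 0.12 and A_55_P2745108 0.06, so the sign of the last depended on the processing. With the processing as reported, a fit on the mean of the Kcnq1 probes gave 0.50. Without each array in turn the brightest probe stayed between 0.73 and 0.76. Its SE was 0.08 as reported and 0.20 with an intensity trend and robust variances, which leave the difference as it was. In the latter fit the SE was 0.23 on A_55_P2086203 and 0.25 on A_55_P2094641. Kcnq1ot1, the noncoding RNA transcribed antisense within the Kcnq1 locus, had 5 probes with differences of -0.13 to 0.11. Kcnq1 is also expressed in choroid plexus, whose 6 markers were lower in iodine in 6 of 6 (median difference -0.37). Their median deviation from the 4-array mean was -1.25 on iodine replicate 2 and 0.94 on iodine replicate 3. The part of choroid plexus in the Kcnq1 values was not tested.

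**Figure D2:**
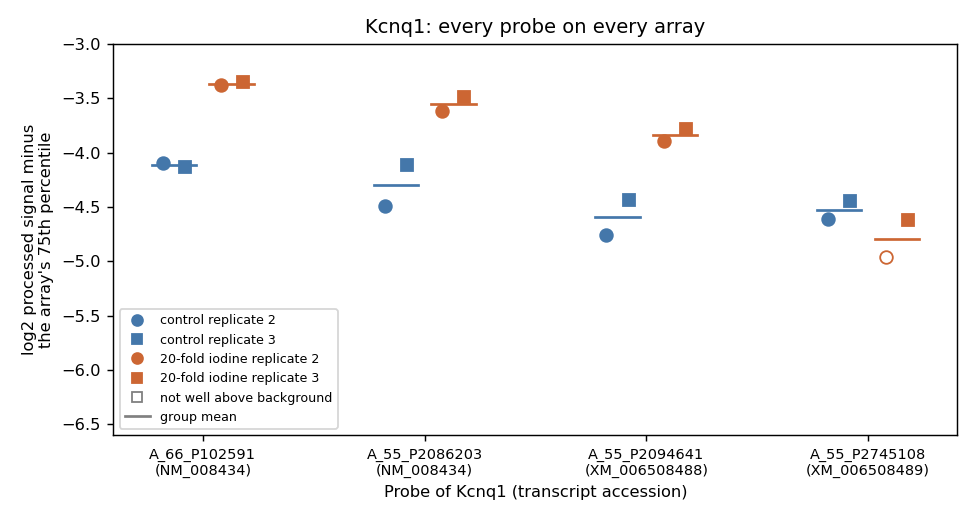
Log2 processed signal minus the array's 75th percentile of the 4 Kcnq1 probes on each of the 4 arrays, with lines at group means and open symbols where a probe was not well above background. On 3 probes the iodine arrays lie above both controls by 0.75 to 0.76 on average, and on A_55_P2745108 they lie below by 0.26.

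The other Kcnq genes, which form the M current in neurons, had small differences. Kcnq3 stood at -1.53 and -1.46 in controls and -1.16 and -1.43 in iodine (0.20 ± 0.12 SE). The groups did not overlap, with 1 iodine array close to the controls. Kcnq5 had -0.0076 (95% interval -0.29 to 0.27), with dimmer probes at 0.19 and 0.09. Of 11 Kcnq probes 9 were higher in iodine, 3 of them of Kcnq1 (background 52.4% of all probes, 59.6% of probes other than the brightest). Over 4 tested Kcnq genes the median was 0.14. The median was 0.05 without iodine replicate 2 and 0.23 without iodine replicate 3.

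Kcnb2, a delayed rectifier subunit of neurons, stood at -1.71 and -1.50 in controls and -1.28 and -1.30 in iodine, a difference of 0.31 ± 0.11 (SE) or 1.24-fold (adjusted p = 0.542 by limma). The groups did not overlap, and the controls lay farther apart than the iodine arrays. The difference of Kcnb2 was 0.21 without control replicate 2 and 0.18 with normexp.

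Kv1 subunits (Kcna), which include the axonal channels that delay firing, had a median of 0.032 over 7 tested genes, from -0.17 to 0.13. Kcna2 stood at 1.04 and 0.98 in controls and 0.80 and 0.90 in iodine (-0.17 ± 0.09 SE), with no overlap. Kcna1 had -0.02 (95% interval -0.32 to 0.28) and Kcna4, an A-type subunit, 0.05 (-0.38 to 0.48). For both, 1 iodine array lay above and 1 below the controls. Kcna10 was not above background.

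Kv3 subunits (Kcnc) allow fast firing of interneurons, and Kv4 subunits (Kcnd) carry the A-type current of pyramidal dendrites. The median over 4 tested Kcnc genes was 0.06. Kcnc1 had 0.08 ± 0.08 (SE) on its brightest probe and -0.04 and -0.0029 on 2 dimmer ones. Kcnc2 had -0.02 (95% interval -0.24 to 0.20), but a dimmer probe stood at -2.68 and -2.71 in controls and -2.50 and -2.24 in iodine (0.32 ± 0.12, adjusted p = 0.556 by limma). The estimates of the Kcnc2 probes thus differ in sign, that of the brightest with an interval that includes both signs. The 9 interneuron markers were higher in 2 and lower in 7, at a summed level of 7.72 to 7.78 in controls and 7.61 to 7.73 in iodine, and their part in these values was not tested. Kcnd2 had -0.03 (-0.33 to 0.27), Kcnd3 -0.05 (-0.32 to 0.21) and Kcnd1 0.11 (-0.12 to 0.35), the last with both iodine arrays above the controls. Over 16 tested Kcna, Kcnb, Kcnc and Kcnd genes, 11 were higher (background 45.6%) and 5 lower (background 54.4%), with a median of 0.034.

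The ether-a-go-go subfamily (Kcnh) was higher in iodine in 7 of 8 genes, with a median of 0.11, and on 11 of 13 probes. Over the array 45.6% of genes, 52.4% of probes and 59.6% of probes other than a gene's brightest were higher. Kcnh7 stood at -3.35 and -3.16 in controls and -3.04 and -3.02 in iodine (0.22 ± 0.10 SE). Kcnh1 had 0.11 ± 0.08 on its brightest probe and 0.21 and 0.25 on the others. Kcnh2, the channel known as hERG in humans, had 0.16 ± 0.22 and 0.32 ± 0.14 on its 2 probes. No Kcnh gene had an unadjusted p under 0.05, and without control replicate 3 the median of the subfamily was 0.0033.

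Silent modifier subunits (Kcnf, Kcng, Kcns, Kcnv) work only together with Kv2 pores. Of 9 tested genes 3 were higher in iodine (background 45.6%) and 6 lower (background 54.4%), with a median of -0.016. Kcng4 stood at -4.51 and -4.75 in controls and -4.39 and -3.82 in iodine (0.52 ± 0.23 SE). The size of the Kcng4 difference came mostly from iodine replicate 3, and it was 0.24 without that array and 0.09 with normexp background correction. Kcnv1 had -0.11 ± 0.15, and its dimmer probe stood at -2.39 and -2.40 against -2.70 and -2.89 (-0.40 ± 0.10, adjusted p = 0.523 by limma), both iodine arrays below the controls. Kcns3 had -0.19 ± 0.12 and Kcnf1 -0.075 ± 0.098. Kcnv2 was well above background on 1 array and was not tested.

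Channels of the calcium- and sodium-activated families (Kcnma, Kcnn, Kcnt), taken with the alkaline-activated BK relative Kcnu1, had no member with an unadjusted p under 0.05. Of these 8 genes 3 were higher in iodine (background 45.6%). Kcnma1, the pore of the large-conductance BK channel, had the most probes of the family, all 5 above background. Their differences ran from -0.11 to 0.08, and the groups overlapped on each. Kcnn2, an SK channel behind the afterhyperpolarization of pyramidal neurons, stood at 2.76 and 2.59 in controls and 2.61 and 2.21 in iodine (-0.26 ± 0.17 SE). Iodine replicate 3 was the low array for Kcnn2, and the value was -0.06 without it. The dimmer probes of Kcnn2 had 0.045 and -0.035. The sodium-activated Kcnt2 had 0.13 ± 0.14 and Kcnu1 0.10 ± 0.10.

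Inward rectifiers (Kcnj) were higher in iodine in 8 of 12 tested genes (background 45.6%), with a median of 0.125. Of the 12, 2 had an unadjusted p under 0.05, both higher in iodine (background 3.48%). Kcnj2, a strong rectifier that steadies the resting potential, stood at 0.20 and 0.11 in controls and 0.70 and 0.43 in iodine, a difference of 0.41 ± 0.13 (SE) or 1.33-fold (adjusted p = 0.533 by limma). Kcnj6, a subunit of the channels opened by G proteins downstream of GABA-B and adenosine receptors, stood at -1.23 and -1.10 against -0.78 and -0.95, a difference of 0.30 ± 0.11 (adjusted p = 0.546). In both genes each iodine array lay above each control. Leaving out 1 array at a time gave 0.27 to 0.55 for Kcnj2 and 0.21 to 0.39 for Kcnj6. The median deviation of the Kcnj genes from their 4-array means was 0.04 and -0.24 in control replicates 2 and 3 and 0.06 on both iodine arrays. Control replicate 3 was thus the low array, and the subfamily median was 0.027 without it and 0.26 without control replicate 2.

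Partners of Kcnj6 in the G protein-gated channel had differences of both signs. Kcnj3 stood at 0.63 and 0.68 in controls and 0.52 and 0.31 in iodine (-0.24 ± 0.11 SE), while its other probe stood at -1.86 and -1.69 against -1.46 and -1.65 (0.22 ± 0.12). The groups did not overlap on either Kcnj3 probe, in opposite directions, and the mean of the probes gave -0.01. Kcnj9 had 0.07 ± 0.08 and Kcnj5 -0.01 ± 0.29, the latter above background on 3 of 4 arrays. Among other strong rectifiers Kcnj4 had -0.15 ± 0.10. Kcnj11, the pore of the ATP-sensitive channel, had 0.34 ± 0.14 on one probe and -0.10 ± 0.08 on the other, again without overlap on either.

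The astrocyte channel gene Kcnj10 stood at 3.94 and 3.72 in controls and 3.92 and 3.997 in iodine (0.13 ± 0.11 SE), with control replicate 2 between the iodine arrays. Kcnj16, which assembles with Kcnj10, had 0.12 ± 0.23. Of 8 astrocyte markers 4 were higher and 4 lower, and those with an unadjusted p under 0.05 were Sox9 (0.37 ± 0.10) and Gfap (0.29 ± 0.09), both higher in iodine. The list stood at a summed level of 6.20 to 6.36 in controls and 6.24 to 6.30 in iodine, and its part in the Kcnj10 and Kcnj16 values was not tested. Kcnj1 was not above background on any array.

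**Figure D3:**
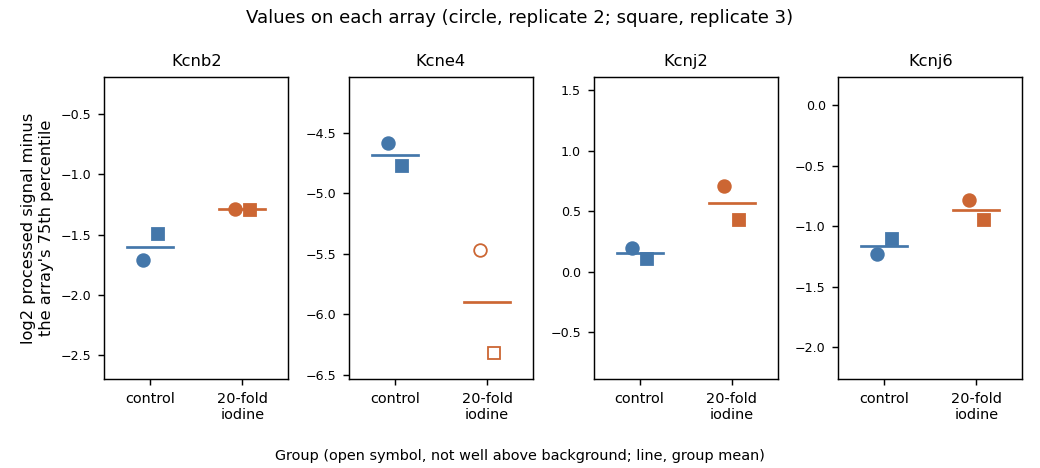
Log2 processed signal minus the array's 75th percentile on each array for Kcnb2, Kcne4, Kcnj2 and Kcnj6 (brightest probes), each panel spanning the same range of log2 units. Both iodine arrays lie above both controls in Kcnb2, Kcnj2 and Kcnj6, and below them in Kcne4, where open symbols show that neither iodine array was well above background.

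Leak channels (Kcnk) were higher in iodine in 4 of 10 tested genes (background 45.6%), with a median of -0.027 and none with an unadjusted p under 0.05. Kcnk4 had the smallest p, at -0.05 and 0.03 in controls and 0.09 and 0.21 in iodine (0.16 ± 0.09 SE). Kcnk1 had -0.02 (95% interval -0.23 to 0.20), with all 4 arrays between 1.71 and 1.77. Kcnk10, chosen for mention after its values were seen, had 0.01 ± 0.13 on its brightest probe, but a dimmer probe stood at -3.71 and -4.04 in controls and -3.21 and -3.34 in iodine (0.60 ± 0.15, adjusted p = 0.523 by limma). Kcnk5, Kcnk7, Kcnk9 and Kcnk18 were not well above background on any array, so levels of Kcnk9 could not be compared.

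Among auxiliary subunits, 4 of 12 tested genes were higher in iodine (background 45.6%) and 8 lower (background 54.4%), with a median of -0.05. Kcne4, a single-span protein that binds Kv channels, stood at -4.58 and -4.78 in controls and at -5.47 and -6.32 in iodine, where it was not well above background. The mean of the controls was 1.26-fold above the lowest signal well above background on each iodine array. That signal is not a strict ceiling for dimmer spots. A Kcnj2 probe not well above background stood at -4.96 on iodine replicate 3, where the lowest signal well above background was -5.01. The fitted difference was -1.22 ± 0.31 (SE, adjusted p = 0.523 by limma). It was 0.01 with normexp.

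The Kv4-binding proteins (Kcnip) were lower in iodine in 4 of 4 genes (background 54.4%), with a median of -0.05 and small values. Kcnip4 stood at 3.56 and 3.43 in controls and 3.39 and 3.20 in iodine (-0.20 ± 0.11 SE). Kcnip3 had -0.06 ± 0.08 on its brightest probe and 0.29 ± 0.12 on its dimmest, so its probes differ in sign. Kcnip1 and Kcnip2 had -0.04 and -0.02. Of the beta subunits, Kcnab2 of the Kv1 channels had 0.12 ± 0.10, Kcnmb4, the neuronal BK subunit, 0.05 ± 0.11 with a dimmer probe at 0.26 ± 0.11, and Kcnmb2 -0.15 ± 0.13. Kcnmb1 and Kcnmb3 were not tested.

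Estimates from probes of the same gene often differed in sign. Signs were counted however small the value, such as -0.0029 on a Kcnc1 probe and 0.0026 on a Kcnma1 probe. Of 31 members with several tested probes, 18 held probes of both signs, against 47.7% of 6092 such genes on the array. Of the 43 member probes other than the brightest, 31 were higher in iodine (background 59.6%), and 13 lay wholly above the controls (background 30.3%). The probes of Kcnq1 ran from -0.26 to 0.76 as reported, and from 0.06 to 0.19 with normexp.

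**Figure D4:**
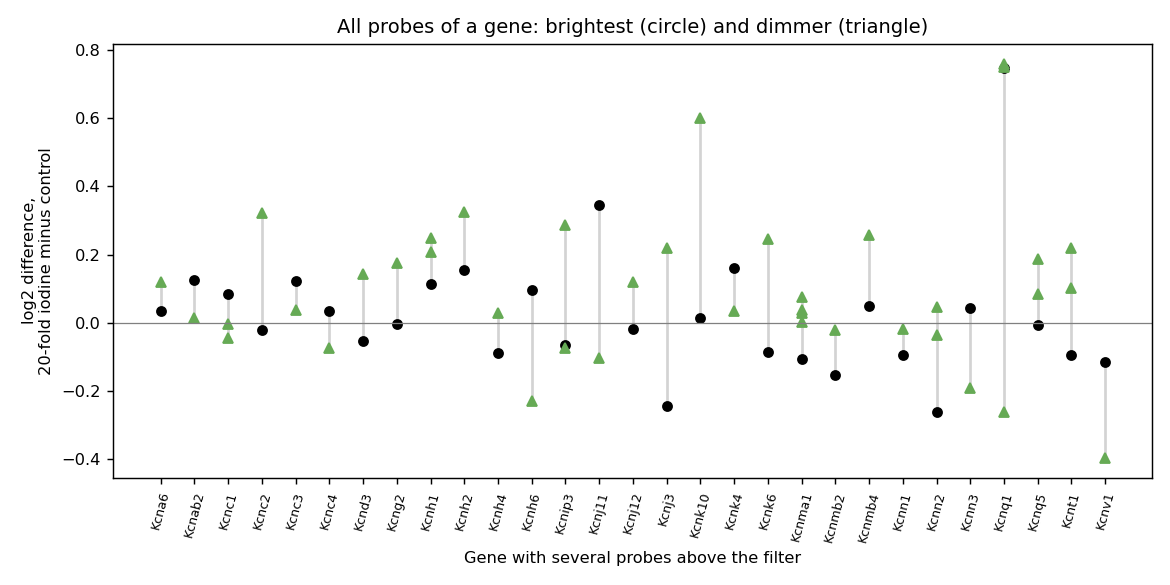
Log2 difference, 20-fold iodine minus control, of every tested probe of 29 of the 31 potassium channel genes with several such probes; circles are the brightest probe of a gene and triangles its dimmer probes. In 18 genes the points lie on both sides of 0, and 3 of the 4 Kcnq1 points sit at 0.75 to 0.76.

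Other proteins of the same channels, from lists chosen for what the proteins do, gave a similar picture. Of 37 tested genes of 39 listed, 20 were higher (background 45.6%) and 17 lower in iodine (background 54.4%). By limma 0 passed the adjusted threshold, and 2 had an unadjusted p under 0.05, against 6.35% of all genes. Both were higher (background 3.48%). They were Lingo1, reported to bind BK channels, at 1.89 and 1.81 in controls and 2.23 and 2.21 in iodine (0.38 ± 0.08 SE, adjusted p = 0.518), and Gnb1, a G protein beta subunit whose dimers open Kcnj3 and Kcnj6 channels, at 3.21 and 3.20 against 3.48 and 3.42 (0.25 ± 0.08, adjusted p = 0.538). Abcc8, the sulfonylurea receptor that assembles with Kcnj11, had 0.20 ± 0.09, with no overlap. Dpp6, a partner of Kv4 channels, had 0.04 (95% interval -0.21 to 0.28). Of 10 clustering and anchoring proteins of Kv1 and Kv7 channels 7 were lower (background 54.4%), with a median of -0.07.

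Sequence upstream of the start is shown for the genes with an unadjusted p under 0.05 that a RefSeq promoter table (GRCm38.p6) holds, so that their windows can be set side by side. Kcnb2 and Kcnq1 are not in that table. Each line gives the 250 bases before the annotated start, 5′ to 3′ on the gene's strand, with capitals marking a motif found. Kcnj2 lies at chr11:111065914-111066163 (+ strand), Kcnj6 at chr16:94997697-94997946 (- strand, the outer of 2 starts) and Kcne4 at chr1:78816661-78816910 (+ strand).
Kcnj2: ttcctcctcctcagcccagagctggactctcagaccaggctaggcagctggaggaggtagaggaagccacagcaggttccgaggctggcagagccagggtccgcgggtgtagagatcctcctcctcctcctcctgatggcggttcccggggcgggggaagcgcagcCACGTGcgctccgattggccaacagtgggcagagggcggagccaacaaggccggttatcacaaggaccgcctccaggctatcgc
Kcnj6: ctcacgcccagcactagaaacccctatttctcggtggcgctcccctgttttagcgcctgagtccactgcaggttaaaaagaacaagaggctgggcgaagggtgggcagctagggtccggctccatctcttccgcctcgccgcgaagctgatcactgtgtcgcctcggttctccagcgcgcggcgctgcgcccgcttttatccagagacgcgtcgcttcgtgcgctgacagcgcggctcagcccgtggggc
Kcne4: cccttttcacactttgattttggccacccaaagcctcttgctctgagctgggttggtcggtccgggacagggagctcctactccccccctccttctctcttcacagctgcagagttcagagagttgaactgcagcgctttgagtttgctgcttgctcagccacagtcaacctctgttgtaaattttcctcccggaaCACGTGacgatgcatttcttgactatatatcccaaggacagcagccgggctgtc

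The motifs AGGTCA (half-site of nuclear receptors that include the thyroid hormone receptors), CACGTG (E-box) and TGACGTCA (cyclic AMP response element) were searched on both strands, and none of the 3 contains another. CACGTG occurs in the windows of Kcnj2 and Kcne4, which had differences of opposite sign, and in 6 of 88 member windows, 6.82%, against 6.02% of all 32851. AGGTCA was in 6 of 88 member windows, 6.82%, against 14% of all, in Kcna10, Kcnf1, Kcnh1, Kcnip4, Kcnj16 and Kcnk10. TGACGTCA was in 0 member windows, against 1.55% of all. These counts cover 64 member genes and describe letters in these windows only.

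**Figure D5:**
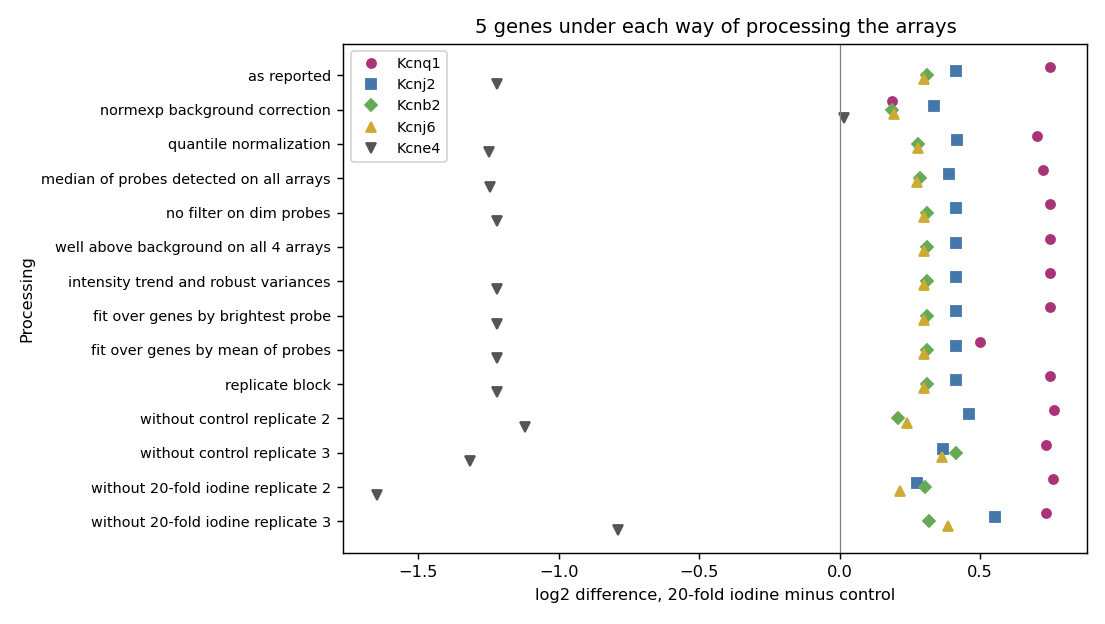
Log2 difference, 20-fold iodine minus control, of Kcnq1, Kcnj2, Kcnb2, Kcnj6 and Kcne4 as reported and under each of 13 other ways of processing the arrays. Kcnq1, Kcnj2, Kcnb2 and Kcnj6 stay above 0 in each, with Kcnq1 at 0.19 after normexp, and Kcne4 runs from -1.65 to 0.01 (it has no value where a probe must be above background on all 4 arrays).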

How the data were processed

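The authors deposited the scanner output of 4 arrays. Per the file headers it came from Agilent Feature Extraction, version 12.1.1.1, which subtracted background and removed spatial trends within each array. Of the deposited values, the intensity used was the processed signal, not normalized between arrays. Flags (other columns) were used as the authors deposited them. The files name an older genome build, so coordinates come only from RefSeq (build GRCm38.p6).

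Spots of a probe were averaged without outlier spots (47 to 70 per array). Each array's 75th percentile (144.3 to 158.8) was subtracted on the log2 scale. The 38231 of 56605 probes that the software called well above background on 2 or more arrays were fitted together with limma 3.58.1 (lmFit, eBayes, two-sided, R 4.3.3 with the data.table package, version 1.17.8), with Benjamini-Hochberg adjustment over all of them and a threshold of 0.05. A gene's brightest probe stands for it in counts. Of 2 arrays against 2, an exact permutation test cannot go below p = 0.333, so none was run. The script was tested on simulated data. Plots used matplotlib 3.10.9 (Python 3.11.15).

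Members and gene lists were chosen with earlier results of these data known. The naming rule took every member with an unadjusted p under 0.05 (5 genes), the smallest p of each subfamily (20), 20 genes of hippocampal physiology and genes with a probe of opposite sign where either had an unadjusted p under 0.05 (1), 36 in all. Other members named were chosen after their values were seen, and some members are not reported by name here. Oligodendrocyte, microglia and vascular marker lists (8, 6 and 7 genes) had median differences of 0.14, 0.0042 and 0.21. The alternatives were normexp (offset 50) on the median spot and background intensities as the authors deposited them, quantile normalization, scaling to probes detected on all arrays, no filter or a stricter one, an intensity trend with robust variances, fits over genes, the replicate number as a block, and leaving out each array.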

Additional observations from a re-analysis of the deposited data

How the results depend on the processing

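Under each of the 13 alternatives 0 member probes (genes in the fits over genes) passed the adjusted threshold by limma, with 3 to 8 member genes at an unadjusted p under 0.05. That count was 8 with an intensity trend and robust variances (8.84% of all genes), 7 with normexp (10.9% of all genes), and 3 to 6 without each array in turn (4.87 to 6.15% of all genes), against 5 as reported (6.35%). The number of members whose arrays do not overlap was 51 to 59 with 1 array left out, where fewer arrays overlap less often by construction (66.6 to 73.4% of all genes), and 28 to 35 otherwise (39.8 to 45.7%), against 29. The 35 is of 89 genes, with no filter on dim probes. The median difference of the members ran from -0.025 to 0.070 without each array and from -0.0027 to 0.0504 otherwise. Fits with 1 array left out take the spread from the intact group and assume that the lone array varies alike. The difference of Kcne4 went from -1.22 to 0.0147 ± 0.0525 (SE) with normexp, within 1 SE of 0, and the cause was not tested. Of 79 tested members 31 kept their sign under every alternative that gave a value, among them 4 of the 5 genes with an unadjusted p under 0.05. The same count over all named genes is not given here, so the 31 cannot be read as a trait of the family. Several alternatives could not turn a sign. The filters, trend, block and brightest-probe fit leave a difference as it was, and leaving out 1 array cannot turn genes without overlap. With the replicate block, the median difference was 0.022 and 4 members had an unadjusted p under 0.05 (5.34% of all genes). Deviations of arrays with the same replicate number correlated at -0.0204, so the number was not taken to pair samples, and the labels give no shared litter or day. The precision is limited by 2 arrays per group, and for Kcne4 the iodine signal was not well above background.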
